A study of Mus musculus with 5 samples.

Results

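Transforming growth factor beta (TGF-beta) signaling was examined in single-cell RNA sequencing (scRNA-seq) of the developing mouse penis and limbs through 10 genes of the 32285 counted. The genes were taken by their symbols: the ligands *Tgfb1*, *Tgfb2* and *Tgfb3*, the receptors *Tgfbr1*, *Tgfbr2* and *Tgfbr3*, the latency proteins *Ltbp1*, *Ltbp2* and *Ltbp3*, and *Tgfbi*, a matrix gene named for its induction by TGF-beta. There were 3 libraries of penis from males at postnatal day 6, when the baculum, the bone inside the penis, begins to form. One forelimb library and one hindlimb library came from embryos at embryonic day 15, when limb bones begin to ossify. The strain of all 5 libraries is C57BL/6N by the labels, whereas the methods of the study name C57BL/6J for its mice. Each penis came from a separate mouse, some of them litter mates, with tissue around the glans removed, and the limbs came from male embryos. The sources do not say how embryos were divided between the limb libraries, and tissue, age and dissection changed together between penis and limb, so that they cannot be told apart here. No treatment or mutation was present in any library.

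TGF-beta ligands are made as latent complexes in which the mature ligand stays bound to its own propeptide, and latent TGF-beta binding proteins tie most of these complexes to fibrillin fibers of the matrix. Integrins, proteases and thrombospondin can release the ligand, which then binds the type II receptor and, with it, the type I receptor kinase that phosphorylates Smad proteins. In skeletal tissues the pathway is known for its part in chondrocyte differentiation, tendon formation and the coupling of bone resorption to bone formation.

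Unique molecular identifier (UMI) counts were summed over the cells of a type in each library and are given as CPM, the count of a gene in 1000000 UMIs of that sum. Cells were assigned to a type by how many of its marker genes they held, and each type is called by that gate, such as mesenchyme-like. Levels are listed for penis libraries 1, 2 and 3 in that order, followed by the limb libraries. The penis libraries kept 5708 to 7085 cells and 51529854 to 68417925 UMIs, and the limb libraries 20514 and 22057 cells with 142718533 and 148752710 UMIs. Mesenchyme-like cells were the largest class, with 3444 to 4173 cells per penis library and 9269 and 9908 per limb library, and muscle-like cells were found only in limb at the gate used (0 in each penis library). The smallest class used was osteoblast-like, with 20 to 23 cells per penis library, and it was not used in limb, where the libraries held 13 and 8 such cells. Each gate required markers of its own list, so their presence there does not check the type. At most 1 marker of a list was at 0 in any library. The median marker was found in only 36.9% to 56.7% of mural-like and 39.1% to 52.2% of osteoblast-like cells. Libraries shared between 9 and 124 cell barcodes by pair. Fold changes were tested on these sums with edgeR's quasi-likelihood test over all genes that passed a filter on low counts. A gene was called at a Benjamini-Hochberg adjusted p under 0.01 and a log2 fold change beyond 1 in either direction. For penis against limb, the p-values measure the spread between the 3 penis libraries and between the forelimb and the hindlimb library. Neither limb was replicated. In the comparisons between cell types each library had its own term. Those p-values measure the spread that is left between types within libraries.

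Of the members, *Ltbp2* differed most between the tissues, at 182 ± 3.08 CPM (SD, n = 3) in penis mesenchyme-like cells against 11.8 ± 4.49 CPM (SD, n = 2) in limb. *Ltbp3*, *Tgfbi* and *Tgfb3* were also called higher in penis mesenchyme-like cells. The bases just upstream of *Ltbp2*, *Ltbp3* and *Tgfbi* in RefSeq (GRCm38.p6) are printed because these members were called in those cells and the promoter table held an entry for them. Windows could be looked up for 8 of the 10 members. Each stretch ends before the first base of the gene in the annotation, and capitals mark CAGAC or its reverse complement GTCTG, letters bound by Smad proteins.
Ltbp2: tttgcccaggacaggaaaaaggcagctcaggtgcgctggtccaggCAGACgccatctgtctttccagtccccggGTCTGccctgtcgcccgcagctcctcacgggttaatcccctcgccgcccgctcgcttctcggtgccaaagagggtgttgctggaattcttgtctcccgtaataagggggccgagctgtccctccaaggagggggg
Ltbp3: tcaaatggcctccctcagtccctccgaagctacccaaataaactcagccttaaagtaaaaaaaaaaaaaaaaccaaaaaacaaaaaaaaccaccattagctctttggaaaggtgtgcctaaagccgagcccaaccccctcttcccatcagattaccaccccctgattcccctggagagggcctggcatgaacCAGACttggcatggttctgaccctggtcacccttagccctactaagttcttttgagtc
Tgfbi: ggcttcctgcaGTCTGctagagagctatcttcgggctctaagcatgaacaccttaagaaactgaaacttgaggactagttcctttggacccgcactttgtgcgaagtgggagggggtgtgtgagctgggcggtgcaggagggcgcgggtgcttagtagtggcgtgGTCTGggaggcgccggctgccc
The *Ltbp2* stretch is chr12:84876533-84876741 on the minus strand and holds 2 matches in 209 bases. The *Ltbp3* stretch is chr19:5740650-5740899 on the plus strand and holds 1 match in 250 bases. The *Tgfbi* stretch is chr13:56609336-56609522 on the plus strand and holds 2 matches in 187 bases. The same letters were present, on either strand, in 42.19% of 32851 mouse promoter windows of 250 bases, so a match is common. The printed *Ltbp2* and *Tgfbi* stretches are shorter than those windows. Windows of members not called in those cells also held matches, with 2 for *Tgfb2* and 1 for *Tgfbr2*. The windows of *Ltbp1* held 1 and 2, those of *Tgfbr1* 0 and 1, and that of *Tgfb1* 0. The letters AGAACA of androgen response elements, searched on both strands, had 0 matches in the windows of the 8 members with an entry, and 16.08% of all windows held them. These matches describe the letters and do not show binding.

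*Tgfb1* (ENSMUSG00000002603, chr7:25687002-25705077, plus strand) encodes the ligand made by many blood-derived cells. It was highest in macrophage-like cells of both tissues, at 301, 270.1 and 332 CPM in penis, 204 in forelimb and 203 in hindlimb. Endothelial-like cells followed, at 167, 154 and 169.7 CPM in penis, 117 in forelimb and 118 in hindlimb. Every penis library lay above both limb libraries in both types, but neither difference passed the limit of 1: the log2 fold change of penis over limb was 0.59 ± 0.11, adjusted p = 0.00134 in macrophage-like and 0.45 ± 0.09, adjusted p = 4.56e-04 in endothelial-like cells. Mesenchyme-like cells, the largest class, held 18.6, 18.01 and 20.3 CPM in penis, 22.7 in forelimb and 22.2 in hindlimb, so the penis libraries lay below the limb ones there. Penis levels of *Tgfb1* ran, from highest to lowest, through macrophage, endothelial, osteoblast, chondrocyte, glial, tendon, mural, mesenchyme and keratinocyte, where library ranges overlapped at each step from chondrocyte to mural. Limb levels of *Tgfb1* ran through macrophage, endothelial, chondrocyte, glial, mural, mesenchyme, keratinocyte, tendon and muscle, where library ranges overlapped at each step from chondrocyte to keratinocyte. Muscle-like cells, which occurred only in limb, were the lowest with 6.38 CPM in forelimb and 5.00 in hindlimb. Tendon-like cells were the class in which *Tgfb1* was called between tissues, with 38.0, 23.8 and 27.3 CPM in penis, 14.001 in forelimb and 11.4 in hindlimb, a log2 fold change of 1.32 ± 0.25, adjusted p = 9.44e-04. That call rests on a gate of 90 to 101 penis cells and was lost with 1 marker more per gate, where the value was 1.39 and the adjusted p = 0.0167 by edgeR, and with 1 marker fewer, where the value was 0.86. The 6 mesenchyme markers also summed higher in penis tendon-like cells, at 1439 to 1504 CPM against 1018 to 1111 in limb. In tendon-like cells *Tgfb1* was at 132% to 205% of its mesenchyme-like level in penis and 51.3% to 61.6% in limb. The part of these markers, or of macrophage and endothelial markers, in the call was not tested.

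Osteoblast-like cells of the penis, the small class gated on markers of bone-forming cells, held 83.7, 91.0 and 73.8 CPM in penis, all above the mesenchyme-like range. Against mesenchyme-like cells of the same libraries the log2 fold change was 2.13 ± 0.21, adjusted p = 3.51e-08. It kept its sign and lost the call with 1 marker fewer per gate, at 0.78. Chondrocyte-like cells held 40.6, 47.9 and 31.6 CPM in penis, 26.0 in forelimb and 22.0 in hindlimb. The penis libraries lay above the limb libraries, with a log2 fold change of 0.78 ± 0.17, adjusted p = 0.00247, which was not called but passed with 1 marker more per gate (1.08) and with cells of several gates kept (1.17).

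*Tgfb2* (ENSMUSG00000039239, chr1:186622792-186705989, minus strand), a ligand with roles in skeletal and cardiac development, had a different order of types. It was highest in tendon-like cells, at 277, 249.5 and 306 CPM in penis, 205 in forelimb and 211 in hindlimb, with penis above limb in every library and no overlap. Chondrocyte-like cells held 183, 205 and 198 CPM in penis, 124 in forelimb and 152 in hindlimb, and mesenchyme-like cells 172, 163 and 166 CPM in penis, 117 in forelimb and 161 in hindlimb. Penis libraries were higher in both, by log2 fold changes of 0.52 ± 0.11 and 0.25 ± 0.11, neither called. The calls were in the other direction and in other cells. Glial-like cells, the Schwann cell gate, held 26.5, 25.9 and 27.2 CPM in penis, 109 in forelimb and 97.7 in hindlimb, so limb was 3.89-fold higher (log2 fold change -1.89 ± 0.16, adjusted p = 1.49e-07). Keratinocyte-like cells held 23.9, 29.0 and 22.5 CPM in penis, 61.5 in forelimb and 66.3 in hindlimb, with a log2 fold change of -1.28 ± 0.18, adjusted p = 4.22e-05. The keratinocyte-like value lost its call with 1 marker fewer per gate, at -0.10, and with cells thinned to 2000 UMIs, at -0.35, whereas the glial-like call held under all 13 alternatives. The mesenchyme markers were also higher in these limb gates: 6 of 6 were detected in every library, and their summed level was 427 to 513 CPM in limb glial-like against 121 to 234 in penis glial-like cells, and 375 to 429.9 against 296 to 331 in keratinocyte-like cells. Their part in the result was not tested. Penis levels of *Tgfb2* ran, from highest to lowest, through tendon, chondrocyte, mural, mesenchyme, osteoblast, endothelial, glial, keratinocyte and macrophage, where library ranges overlapped at each step from chondrocyte to mesenchyme and from glial to macrophage. Limb levels of *Tgfb2* ran through tendon, mesenchyme, chondrocyte, mural, glial, muscle, endothelial, keratinocyte and macrophage, where library ranges overlapped at each step from mesenchyme to mural, from glial to muscle and from endothelial to keratinocyte.

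*Tgfb3* (ENSMUSG00000021253, chr12:86056745-86079041, minus strand), the ligand needed for palate fusion, was about 2.44-fold higher in penis mesenchyme-like cells. The values were 94.5, 97.3 and 93.4 CPM in penis, 37.6 in forelimb and 40.4 in hindlimb, with no overlap (log2 fold change 1.27 ± 0.06, adjusted p = 3.18e-07). Mural-like cells, gated on pericyte and smooth muscle markers, held 76.4, 91.9 and 84.3 CPM in penis, 38.1 in forelimb and 34.4 in hindlimb (log2 fold change 1.18 ± 0.14, adjusted p = 1.13e-05). The mural-like call was lost with 1 marker more per gate, at 0.24, and with cells thinned to 2000 UMIs, at 0.86. The mesenchyme markers summed to 1446 to 1472 CPM in penis and 1210.2 to 1230.3 in limb mural-like cells. That was 75.0% to 79.4% and 71.2% to 73.2% of their mesenchyme-like level, and their part in the result was not tested. In tendon-like cells the libraries held 82.5, 95.9 and 90.8 CPM in penis, 63.5 in forelimb and 54.9 in hindlimb, again without overlap but below the limit (log2 fold change 0.69 ± 0.14, adjusted p = 0.00138). Osteoblast-like cells of the penis had 80.4, 109 and 97.1 CPM in penis. Macrophage-like cells held few counts, with 2, 10 and 7 UMIs in the penis libraries, the first below the floor of 3 counts, and 39 and 30 in the limb libraries, a ratio of 0.824 (95% exact interval 0.468 to 1.39) that covers counting error only. Penis levels of *Tgfb3* ran, from highest to lowest, through osteoblast, mesenchyme, tendon, mural, chondrocyte, keratinocyte, endothelial, glial and macrophage, where library ranges overlapped at each step from osteoblast to mural and from keratinocyte to glial. Limb levels of *Tgfb3* ran through tendon, chondrocyte, mesenchyme, mural, muscle, glial, keratinocyte, endothelial and macrophage, where library ranges overlapped at each step from chondrocyte to mural, from glial to keratinocyte and from endothelial to macrophage. The gene overlaps *Ttll5* on the opposite strand, and the strand setting of the counting is not given in the sources used here. Endothelial-like cells were not called (0.86 ± 0.30, adjusted p = 0.0280) but passed without penis library 1, at 1.04 ± 0.30, and with no cell filter, at 1.01. Keratinocyte-like cells (0.48 ± 0.30, adjusted p = 0.265) passed with 1 marker fewer per gate, at 1.19.

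**Figure D1:**
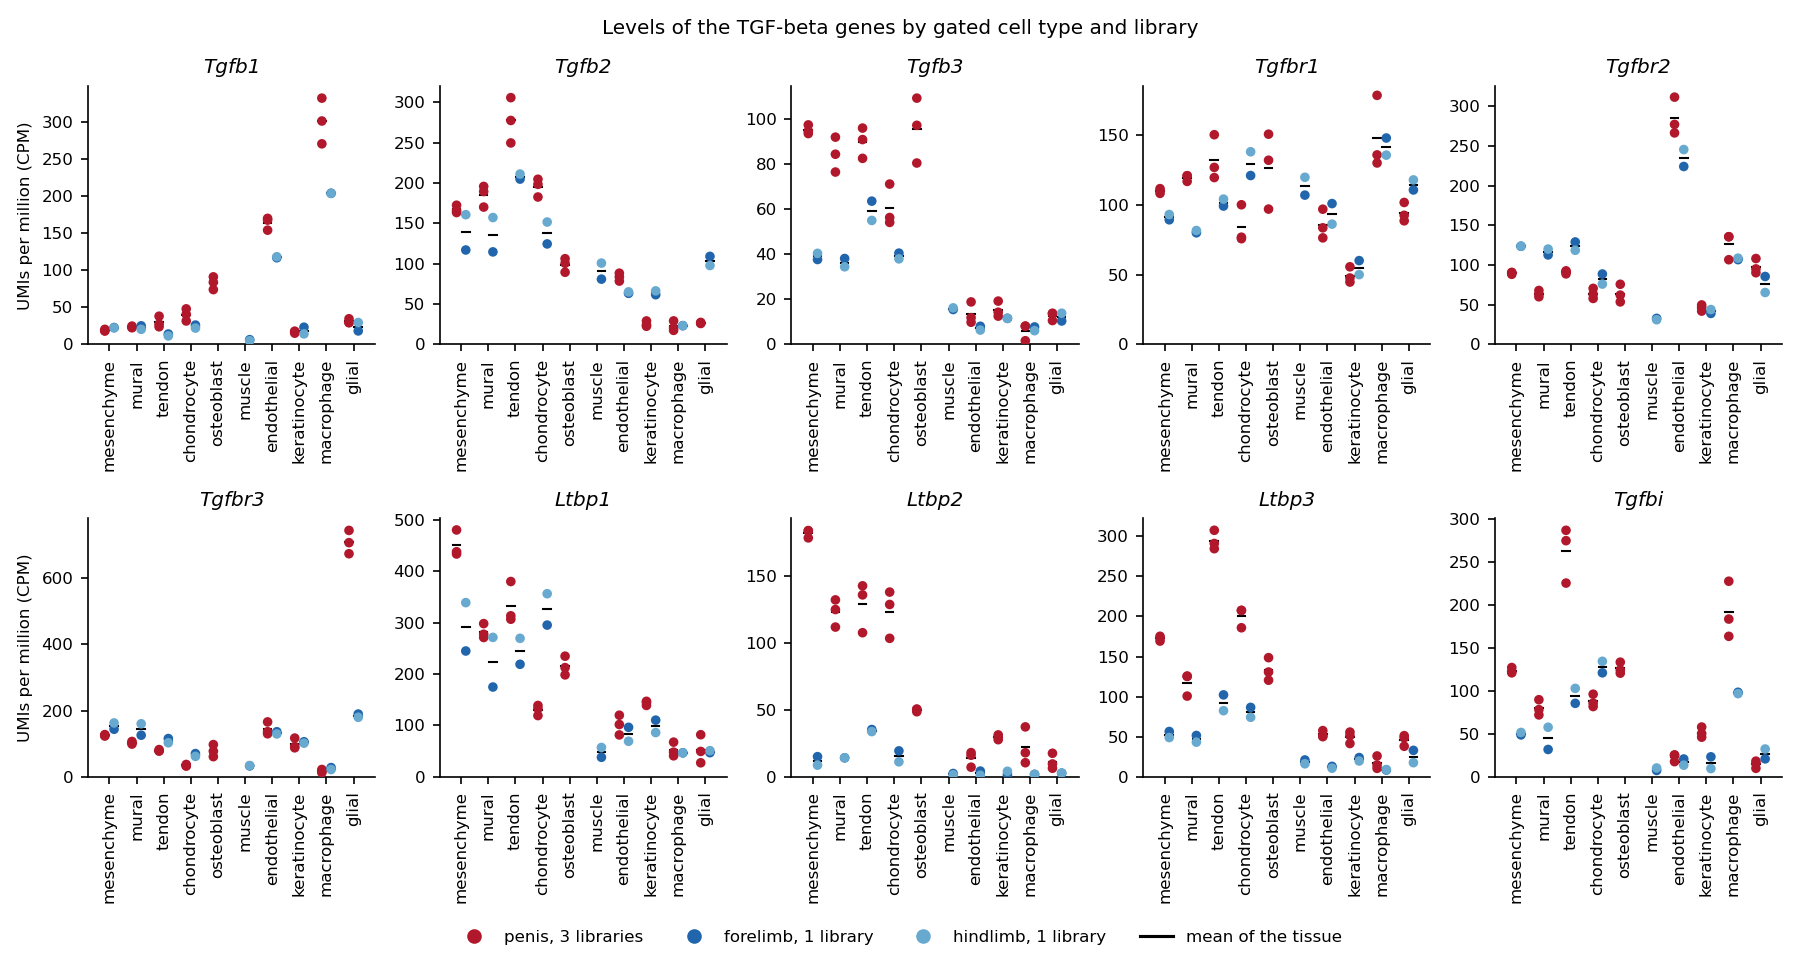
Level of each member (CPM, a linear axis that starts at 0, one panel per gene) in each gated cell type. Points are libraries, colored by tissue, and black bars are tissue means over 3 penis or 2 limb libraries. *Tgfb1* peaked in macrophage-like cells of both tissues, *Tgfbr3* in glial-like cells, and *Ltbp2* was at 112 to 184 CPM in penis mural-like and mesenchyme-like cells against 8.63 to 15.0 in limb.

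Among the receptors, *Tgfbr1* and *Tgfbr2* were called in 0 of 8 types between penis and limb. *Tgfbr1* (ENSMUSG00000007613, chr4:47353222-47414931, plus strand) encodes the type I receptor kinase. It was detected in every type and varied least of the members between them, with the highest type 3.00-fold above the lowest in penis and 2.58-fold in limb. Macrophage-like cells were highest, at 130.1, 136 and 179 CPM in penis, 148 in forelimb and 136 in hindlimb, where the tissues overlapped. Mesenchyme-like cells held 110.2, 108 and 112 CPM in penis, 89.4 in forelimb and 93.2 in hindlimb, with penis above limb by a log2 fold change of 0.25 ± 0.05, adjusted p = 0.00183. Over the 8 types the log2 fold changes ran from -0.62 to 0.54, with 4 above and 4 below 0. The lowest was in chondrocyte-like cells (-0.62 ± 0.12, adjusted p = 0.00135 by edgeR), at 75.8 to 100.1 CPM in penis and 121.1 to 138.1 in limb. The highest was in mural-like cells (0.54 ± 0.10, adjusted p = 7.86e-04 by edgeR), at 116.9 to 121.0 CPM in penis and 80.0 to 81.7 in limb. Penis levels of *Tgfbr1* ran, from highest to lowest, through macrophage, tendon, osteoblast, mural, mesenchyme, glial, endothelial, chondrocyte and keratinocyte, where library ranges overlapped at each step from macrophage to mural and from glial to chondrocyte. Limb levels of *Tgfbr1* ran through macrophage, chondrocyte, glial, muscle, tendon, endothelial, mesenchyme, mural and keratinocyte, where library ranges overlapped at each step from macrophage to chondrocyte, from glial to muscle and from tendon to mesenchyme.

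*Tgfbr2* (ENSMUSG00000032440, chr9:116084293-116175360, minus strand), the ligand-binding type II receptor, was highest in endothelial-like cells, at 277, 267 and 312 CPM in penis, 224 in forelimb and 246 in hindlimb. The penis libraries lay above the limb libraries there, but the log2 fold change was 0.25 ± 0.09, adjusted p = 0.0297. Mesenchyme-like cells went the other way, at 88.4, 90.7 and 90.6 CPM in penis, 124 in forelimb and 124 in hindlimb, with every penis library below both limb libraries (log2 fold change -0.48 ± 0.05, adjusted p = 3.56e-05). The largest difference was in mural-like cells, at 63.4, 60.0 and 68.0 CPM in penis, 113 in forelimb and 120.2 in hindlimb (log2 fold change -0.90 ± 0.11, adjusted p = 1.39e-05), just inside the limit of 1, and it was called with 1 marker more per gate, at -1.03. Penis levels of *Tgfbr2* ran, from highest to lowest, through endothelial, macrophage, glial, tendon, mesenchyme, chondrocyte, osteoblast, mural and keratinocyte, where library ranges overlapped at each step from macrophage to mesenchyme and from chondrocyte to mural. Limb levels of *Tgfbr2* ran through endothelial, tendon, mesenchyme, mural, macrophage, chondrocyte, glial, keratinocyte and muscle, where library ranges overlapped at each step from tendon to mesenchyme and from chondrocyte to glial.

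*Tgfbr3* (ENSMUSG00000029287, chr5:107106570-107289629, minus strand) encodes betaglycan, a co-receptor that presents ligands, *Tgfb2* in particular, to the type II receptor. Penis glial-like cells held 745, 708 and 674 CPM in penis, 189 in forelimb and 179.7 in hindlimb. The penis libraries were 3.84-fold above the limb ones with no overlap (log2 fold change 2.01 ± 0.10, adjusted p = 5.37e-10), and the call held under all 13 alternatives. The same gate had the lower *Tgfb2* given above. No other type was called for *Tgfbr3*. In 6 of 8 types the penis value was below that of limb, most in chondrocyte-like cells, at 32.8, 32.4 and 37.0 CPM in penis, 69.9 in forelimb and 61.5 in hindlimb (log2 fold change -0.94 ± 0.13, adjusted p = 7.02e-05), which passed the limit without the hindlimb library, at -1.05 ± 0.14, and with cells of several gates kept, at -1.10. Mesenchyme-like cells held 127, 123 and 125 CPM in penis, 143 in forelimb and 163 in hindlimb. Penis levels of *Tgfbr3* ran, from highest to lowest, through glial, endothelial, mesenchyme, mural, keratinocyte, tendon, osteoblast, chondrocyte and macrophage, where library ranges overlapped at each step from mural to keratinocyte and from tendon to osteoblast. Limb levels of *Tgfbr3* ran through glial, mesenchyme, mural, endothelial, tendon, keratinocyte, chondrocyte, muscle and macrophage, where library ranges overlapped at each step from mesenchyme to endothelial and from tendon to keratinocyte.

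Of the latency proteins, *Ltbp1* (ENSMUSG00000001870, chr17:75005568-75392512, plus strand), which covalently binds the latent complex and carries it to the matrix, was highest in mesenchyme-like cells of the penis and chondrocyte-like cells of the limb. Mesenchyme-like cells held 438, 433 and 480.1 CPM in penis, 245 in forelimb and 339 in hindlimb, with penis above limb and a log2 fold change of 0.61 ± 0.12, adjusted p = 0.00132, not called. Chondrocyte-like cells went the other way, at 139, 119 and 132 CPM in penis, 295 in forelimb and 356 in hindlimb, so limb was 2.50-fold higher (log2 fold change -1.31 ± 0.11, adjusted p = 1.28e-06). The mesenchyme markers of that gate went the opposite way, with penis above limb. This was the member called lower in penis chondrocyte-like cells, and the call held under all 13 alternatives. Forelimb and hindlimb differed from each other by 1.33-fold over all kept cells, at 203 and 271 CPM, a difference of 1 library against 1 with no test. Penis levels of *Ltbp1* ran, from highest to lowest, through mesenchyme, tendon, mural, osteoblast, keratinocyte, chondrocyte, endothelial, glial and macrophage, where library ranges overlapped at each step from chondrocyte to macrophage. Limb levels of *Ltbp1* ran through chondrocyte, mesenchyme, tendon, mural, keratinocyte, endothelial, glial, muscle and macrophage, where library ranges overlapped at each step from chondrocyte to mural, from keratinocyte to endothelial and from glial to macrophage.

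*Ltbp2* (ENSMUSG00000002020, chr12:84783212-84876532, minus strand) encodes a fibrillin-binding matrix protein that, unlike its relatives, does not bind latent TGF-beta. Over all kept cells it was at 141, 137 and 140.2 CPM in penis, 12.6 in forelimb and 8.54 in hindlimb, 13.2-fold higher in penis. Mesenchyme-like cells held 183, 178 and 184 CPM in penis, 15.0 in forelimb and 8.63 in hindlimb (log2 fold change 3.92 ± 0.20, adjusted p = 4.51e-07). Mural-like cells held 132, 125 and 112 CPM in penis, 14.1 in forelimb and 14.1 in hindlimb (log2 fold change 3.096 ± 0.15, adjusted p = 4.33e-09). Chondrocyte-like cells held 103, 129 and 138 CPM in penis, 19.3 in forelimb and 11.1 in hindlimb (log2 fold change 3.06 ± 0.21, adjusted p = 2.35e-07). The groups did not overlap in these types, and the lowest penis library was above 100 CPM in each. Tendon-like cells were the limb type with the most *Ltbp2*, and the difference there was the smallest of these, at 108, 136 and 143 CPM in penis, 35.2 in forelimb and 33.7 in hindlimb (log2 fold change 1.98 ± 0.15, adjusted p = 1.96e-07). Osteoblast-like cells held 50.2, 48.5 and 50.5 CPM in penis. The 6 mesenchyme markers were also higher in penis in the chondrocyte-like, mural-like and tendon-like gates. In chondrocyte-like cells they summed to 67.7% to 72.0% of their mesenchyme-like level in penis and 41.4% to 45.2% in limb, and *Ltbp2* was at 56.3% to 75.0% of its own in penis and 129% in both limb libraries. In mural-like cells the markers were at 75.0% to 79.4% in penis and 71.2% to 73.2% in limb, and *Ltbp2* at 60.8% to 72.0% and 94.1% to 163%. In tendon-like cells the markers were at 74.6% to 81.2% and 60.6% to 65.4%, and *Ltbp2* at 58.6% to 77.5% and 235% to 390.4%. Their part in the result was not tested. With 1 marker more per gate, penis mural-like *Ltbp2* against mesenchyme-like cells was -1.48, from -0.56 ± 0.13. The gene overlaps the antisense gene *D030025P21Rik*, so reads of both cannot be told apart if strand was not used. With cells thinned to 2000 UMIs, which leaves out shallower cells, 26.6% of penis and 2.22% of limb mesenchyme-like cells had an *Ltbp2* UMI, against 61.4% and 6.07% unthinned. In macrophage-like cells, taken as the background, the thinned shares were 3.07% and 0.2395%, so the background also differed between the tissues. The median depth was 9188 to 10408 UMIs per penis and 5650 and 6260 per limb mesenchyme-like cell, and 8222 to 9196 and 6436 and 7255 per macrophage-like cell.

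*Ltbp2* was low in the remaining types of both tissues. Keratinocyte-like cells held 31.2, 29.6 and 27.6 CPM in penis, 1.45 in forelimb and 4.06 in hindlimb (log2 fold change 3.43 ± 0.36, adjusted p = 2.45e-06), the limb values resting on 2 and 6 UMIs, the first below the floor of 3 counts, and the pooled ratio being 10.6 (95% exact interval 5.31 to 24.8). Macrophage-like cells held 17.9, 37.2 and 10.4 CPM in penis, 1.79 in forelimb and 1.62 in hindlimb (log2 fold change 3.73 ± 0.51, adjusted p = 2.13e-04), with 17 limb UMIs and a pooled ratio of 13.6 (95% exact interval 7.94 to 24.5). Among the 4 types of this paragraph the penis libraries differed most from each other in macrophage-like cells, with library 2 the highest and library 3 the lowest. Endothelial-like cells held 7.11, 17.99 and 16.0 CPM in penis, 4.19 in forelimb and 1.06 in hindlimb (log2 fold change 2.33 ± 0.48, adjusted p = 6.81e-04), with 12 and 3 limb UMIs and a pooled ratio of 5.14 (95% exact interval 3.03 to 9.37). Glial-like cells held 6.33, 9.52 and 17.5 CPM in penis, 2.60 in forelimb and 2.76 in hindlimb, with 3 UMIs in each limb library and a pooled ratio of 4.04 (95% exact interval 1.75 to 11.5), and were not called (log2 fold change 2.06 ± 0.60, adjusted p = 0.0133). The penis libraries lay above the limb libraries in all 4 of these types. With so few limb UMIs, *Ltbp2* passed the filter on low counts in them through the penis libraries, where it was higher. The folds are therefore set against few limb counts. As a share of its mesenchyme-like level in the same library, *Ltbp2* in penis was 15.0% to 17.0% in keratinocyte-like, 5.68% to 20.9% in macrophage-like, 3.87% to 10.1% in endothelial-like and 3.45% to 9.52% in glial-like cells. The 6 mesenchyme markers, none of them at 0 in any library, summed to 15.9% to 17.9%, 6.28% to 15.9%, 9.17% to 10.1% and 6.29% to 12.6% of their own mesenchyme-like level in those penis cells. Their part in the result was not tested. The calls in 3 of these types depended on settings: the endothelial-like call was lost without the hindlimb library (1.67 ± 0.54, adjusted p = 0.0290 by edgeR), with DESeq2 (2.35, adjusted p = 0.0139) and with no filter on low counts (2.39, adjusted p = 0.0111 by edgeR), and with 1 marker more per gate the keratinocyte-like call was lost at 1.97 (adjusted p = 0.0136 by edgeR) and the macrophage-like call at 2.76 (adjusted p = 0.0120 by edgeR). The glial-like value passed without penis library 1, at 2.35 ± 0.55, and under 5 other alternatives, at 2.09 (no filter on low counts) to 3.65 (1 marker fewer per gate). Penis levels of *Ltbp2* ran, from highest to lowest, through mesenchyme, tendon, chondrocyte, mural, osteoblast, keratinocyte, macrophage, endothelial and glial, where library ranges overlapped at each step from tendon to mural and from keratinocyte to glial. Limb levels of *Ltbp2* ran through tendon, chondrocyte, mural, mesenchyme, keratinocyte, glial, endothelial, muscle and macrophage, where library ranges overlapped at each step from chondrocyte to mesenchyme and from keratinocyte to macrophage.

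*Ltbp3* (ENSMUSG00000024940, chr19:5740904-5758532, plus strand), a latency protein whose loss is known to alter bone and tooth development, had a positive log2 fold change in all 8 types and was called higher in penis in 6. Tendon-like cells were highest, at 285, 291 and 308 CPM in penis, 102 in forelimb and 82.4 in hindlimb (log2 fold change 1.76 ± 0.12, adjusted p = 1.21e-07). Chondrocyte-like cells held 208, 207 and 186 CPM in penis, 86.5 in forelimb and 74.1 in hindlimb (log2 fold change 1.34 ± 0.12, adjusted p = 2.09e-06), and mesenchyme-like cells held 175, 169 and 173 CPM in penis, 56.4 in forelimb and 48.9 in hindlimb (log2 fold change 1.69 ± 0.08, adjusted p = 2.21e-07). In each of these types the lowest penis library was above the highest limb library. Endothelial-like cells had the largest fold, at 50.0, 51.2 and 57.5 CPM in penis, 12.9 in forelimb and 10.6 in hindlimb (log2 fold change 2.14 ± 0.16, adjusted p = 7.13e-09). The call was also made in mural-like cells (1.28 ± 0.14, adjusted p = 7.98e-06) and keratinocyte-like cells (1.23 ± 0.20, adjusted p = 2.73e-04). The mesenchyme markers were also higher in penis in chondrocyte-like cells, at 1303 to 1335 CPM against 696 to 769 in limb, and in the tendon-like and mural-like gates given above, and were lower in penis in endothelial-like cells, at 177 to 187 against 233 to 279.9, and in keratinocyte-like cells. *Ltbp3* was at 107% to 123% of its mesenchyme-like level in penis chondrocyte-like and 162% to 178% in penis tendon-like cells, and at 58.1% to 74.2% in penis mural-like cells. The part of the markers in these differences was not tested. The keratinocyte-like call was lost with 1 marker more per gate, at 0.94, and with thinned cells, at 0.89. Macrophage-like (1.05 ± 0.34, adjusted p = 0.0318) and glial-like cells (0.92 ± 0.25, adjusted p = 0.00833) were not called, and glial-like cells passed without penis library 1 (1.06 ± 0.24) or without the forelimb library (1.46 ± 0.31) and with no cell filter (1.03). Macrophage-like cells passed with 1 marker fewer per gate (1.58) and with no cell filter (1.62). Penis levels of *Ltbp3* ran, from highest to lowest, through tendon, chondrocyte, mesenchyme, osteoblast, mural, endothelial, keratinocyte, glial and macrophage, where library ranges overlapped at each step from osteoblast to mural and from endothelial to glial. Limb levels of *Ltbp3* ran through tendon, chondrocyte, mesenchyme, mural, glial, keratinocyte, muscle, endothelial and macrophage, where library ranges overlapped at each step from tendon to chondrocyte, from mesenchyme to mural and from glial to muscle.

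*Tgfbi* (ENSMUSG00000035493, chr13:56609523-56639562, plus strand) encodes a secreted matrix protein that binds collagens and integrins. Tendon-like cells of the penis were highest, at 287, 275 and 226 CPM in penis, 85.5 in forelimb and 103 in hindlimb (log2 fold change 1.58 ± 0.14, adjusted p = 1.00e-06). Mesenchyme-like cells held 127, 123 and 121 CPM in penis, 48.7 in forelimb and 51.5 in hindlimb (log2 fold change 1.28 ± 0.06, adjusted p = 2.51e-07). Penis lay above limb in both without overlap. In tendon-like cells, where the mesenchyme markers were also higher in penis, *Tgfbi* was at 186% to 226% of its mesenchyme-like level in penis and 176% to 199.6% in limb. Macrophage-like cells held 228, 184 and 164 CPM in penis, 98.3 in forelimb and 96.8 in hindlimb (log2 fold change 1.02 ± 0.14, adjusted p = 2.38e-04), a value at the limit that fell below it without penis library 1 (0.85 ± 0.11), without the hindlimb library (0.99 ± 0.22) and under 4 other alternatives. Keratinocyte-like cells held 46.0, 50.3 and 57.9 CPM in penis, 23.2 in forelimb and 9.47 in hindlimb (log2 fold change 1.71 ± 0.26, adjusted p = 9.83e-05). Chondrocyte-like cells were the exception among the skeletal types, with limb above penis, at 96.1, 81.7 and 85.7 CPM in penis, 121 in forelimb and 134 in hindlimb (log2 fold change -0.52 ± 0.11, adjusted p = 0.00193, not called). Mural-like cells were not called (0.84 ± 0.19, adjusted p = 0.00271) but passed without the hindlimb library, at 1.30 ± 0.18, and with 1 marker fewer per gate, at 1.40. Penis levels of *Tgfbi* ran, from highest to lowest, through tendon, macrophage, osteoblast, mesenchyme, chondrocyte, mural, keratinocyte, endothelial and glial, where library ranges overlapped at each step from tendon to macrophage, from osteoblast to mesenchyme, from chondrocyte to mural and from endothelial to glial. Limb levels of *Tgfbi* ran through chondrocyte, macrophage, tendon, mesenchyme, mural, glial, endothelial, keratinocyte and muscle, where library ranges overlapped at each step from macrophage to tendon, from mesenchyme to glial and from endothelial to muscle.

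Counted over types, 79 of the 80 pairs of member and type passed the filter on low counts, *Tgfb3* in macrophage-like cells being left out, and 24 were called, 21 higher and 3 lower in penis. The *Ltbp2* calls in keratinocyte-like, macrophage-like and endothelial-like cells are among the 21 and rest on few limb UMIs. Mesenchyme-like cells had 4 of 10 members called higher (*Ltbp2*, *Ltbp3*, *Tgfb3* and *Tgfbi*), where 12.4% of all tested genes were called higher, and 0 called lower, where 12.9% were. Tendon-like cells also had 4 of 10 higher (*Ltbp2*, *Ltbp3*, *Tgfbi* and *Tgfb1*) against 7.42% of all genes, and 0 lower against 6.10%. Mural-like cells had 3 higher (9.32% of all genes) and 0 lower (7.03%). Keratinocyte-like cells had 3 higher (5.74%) and 1 lower (5.27%). Chondrocyte-like cells had 2 higher (9.85%) and 1 lower (7.80%). Endothelial-like cells had 2 higher (7.20%) and 0 lower (6.30%), and macrophage-like cells 2 of 9 higher (7.72%) and 0 lower (3.57%). Glial-like cells had 1 higher (9.01%) and 1 lower (7.09%). The median log2 fold change of the members was between 0.081 in chondrocyte-like and 0.61 in tendon-like cells, while that of all tested genes lay between -0.0040 and 0.026. The members are few and were picked by name, so these shares and medians are a description.

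**Figure D2:**
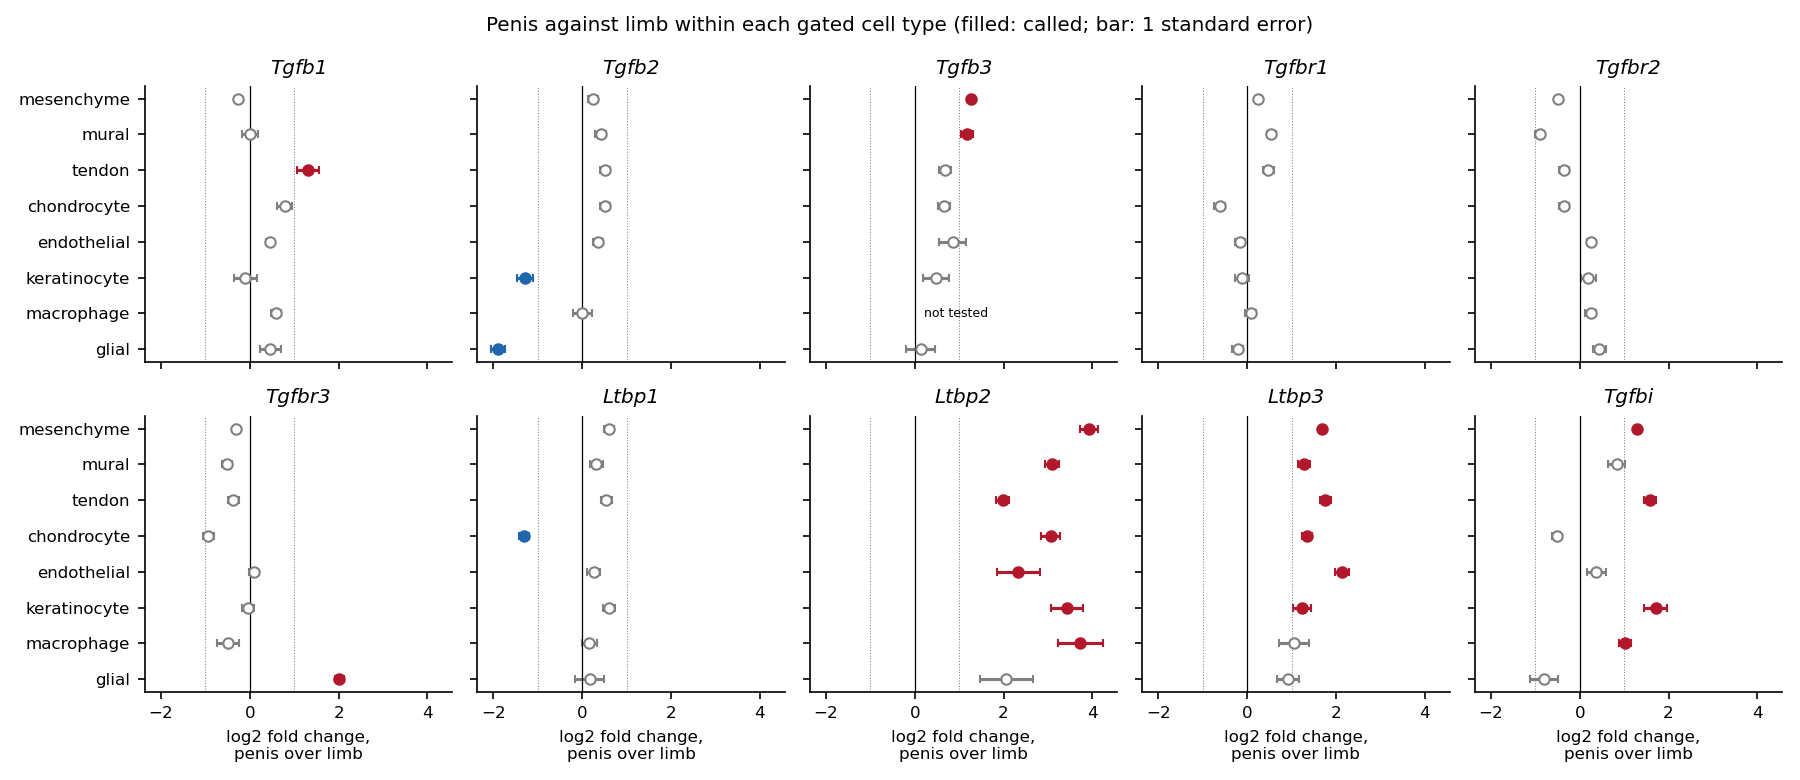
Log2 fold change of penis (3 libraries) over limb (2 libraries) for each member in each gated type, with bars of 1 SE; filled points were called at an adjusted p under 0.01 (edgeR) and a log2 fold change beyond 1. *Ltbp2* and *Ltbp3* lay above 0 in all 8 types, *Tgfbr1* and *Tgfbr2* had no filled point, and the 3 called values below 0 were *Tgfb2* in glial-like and keratinocyte-like cells and *Ltbp1* in chondrocyte-like cells.

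The second question was which cell types held more or less of each member than the mesenchyme-like cells of the same libraries. In the penis 34 of 80 pairs were called, 7 higher and 27 lower. *Tgfb1* was the member most often above mesenchyme-like cells: in macrophage-like (4.27 ± 0.10, adjusted p = 2.55e-24), endothelial-like (3.19 ± 0.09, adjusted p = 1.61e-22), osteoblast-like and chondrocyte-like cells (1.11 ± 0.13, adjusted p = 5.74e-08). The chondrocyte-like value was 0.94 ± 0.16 without penis library 2 and was then not called. The others above were *Tgfbr3* in glial-like cells (2.57 ± 0.08, adjusted p = 2.16e-21), *Tgfbr2* in endothelial-like cells (1.74 ± 0.07, adjusted p = 5.58e-19) and *Tgfbi* in tendon-like cells (1.23 ± 0.11, adjusted p = 5.91e-10). Members called lower were mainly the latency proteins and *Tgfb3*. Glial-like cells had 6 lower members, with *Ltbp2* at -4.003 ± 0.23, *Ltbp1* at -3.06 ± 0.16 and *Tgfb3* at -2.85 ± 0.18. Macrophage-like cells had 6 lower, with *Tgfb3* at -3.77 ± 0.25 and *Ltbp3* at -3.004 ± 0.18. The *Tgfb3* call, among the 27, rests on 19 penis UMIs. The gene passed the filter in this fit through types with more counts, and the value is a description. Keratinocyte-like cells had 6 lower and endothelial-like cells 5, led by *Tgfb2* (-2.51 ± 0.10) and *Ltbp2* (-3.67 ± 0.17). Chondrocyte-like cells had lower *Tgfbr3* (-1.88 ± 0.11, adjusted p = 9.35e-14) and lower *Ltbp1* (-1.79 ± 0.13, adjusted p = 1.24e-11), and osteoblast-like cells lower *Ltbp2* (-1.89 ± 0.29, adjusted p = 4.67e-05) and *Ltbp1* (-1.07 ± 0.18, adjusted p = 1.38e-04). The osteoblast-like *Ltbp1* call was lost without penis library 2 (-1.04 ± 0.26) and without penis library 3 (-0.94 ± 0.17), and the keratinocyte-like *Tgfbi* call (-1.08 ± 0.11) without penis library 1 (-0.996 ± 0.10). Macrophage-like *Tgfbi* (0.93 ± 0.11) was called without penis library 2 (1.04 ± 0.16) or 3 (1.09 ± 0.13). Mural-like cells had 0 members called by edgeR or by DESeq2, with 7 at an unadjusted p under 0.05. That 0 depended on the gate: with 1 marker more per gate 4 members were called lower in mural-like cells, namely *Ltbp1* (-1.68, against -0.67 ± 0.12), *Tgfbi* (-1.51, against -0.63 ± 0.11), *Ltbp2* (-1.48, against -0.56 ± 0.13) and *Tgfbr2* (-1.06, against -0.50 ± 0.08). With 1 marker fewer per gate 8 calls were lost, those of *Tgfb1* in chondrocyte-like cells, of *Tgfbi*, *Ltbp1* and *Ltbp3* in keratinocyte-like cells, of all 3 in osteoblast-like cells and of *Tgfbi* in tendon-like cells. The osteoblast-like *Ltbp1* call was also lost with no cell filter (-0.68) and the keratinocyte-like *Tgfbi* call with thinned cells (-0.96). Calls gained in other types under at least 1 alternative were those of *Tgfb2* in endothelial-like, *Tgfbr1* and *Tgfbr2* in keratinocyte-like, *Tgfbr2* in macrophage-like, *Tgfb2* and *Tgfbr2* in osteoblast-like and *Ltbp3* in tendon-like cells, with osteoblast-like *Tgfb2* at -1.93 with 1 marker more per gate. Of all tested genes, 39.4% were called in either direction in macrophage-like, 30.9% in endothelial-like, 29.1% in keratinocyte-like and 26.4% in glial-like cells. The shares were 12.3% in chondrocyte-like, 8.42% in tendon-like, 4.35% in mural-like and 2.97% in osteoblast-like cells. Called lower alone were 21.6% in macrophage-like, 18.1% in endothelial-like, 17.7% in keratinocyte-like and 16% in glial-like cells. In chondrocyte-like and osteoblast-like cells the lower shares were 7.67% and 1.23%. Fewer than 24 cells per penis library stood behind each osteoblast-like value at the gate used. With 1 marker more per gate there were 8, 7 and 6 such cells in penis libraries 1, 2 and 3.

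In the limb 37 of 80 pairs were called, 5 higher and 32 lower. *Tgfb1* was again above mesenchyme-like cells in macrophage-like (3.46 ± 0.11, adjusted p = 6.15e-16) and endothelial-like cells (2.45 ± 0.11, adjusted p = 8.97e-13). *Tgfbi* was higher in chondrocyte-like (1.33 ± 0.14, adjusted p = 3.02e-07) and macrophage-like cells (1.25 ± 0.15, adjusted p = 4.64e-07), the second of which fell to 0.96 without TMM scaling. *Ltbp2* was higher in limb tendon-like cells (1.60 ± 0.17, adjusted p = 2.28e-06), a type in which it was not called against mesenchyme-like cells in penis (-0.37 ± 0.15). Muscle-like cells, the developing limb muscle, had 8 of 10 members lower, with *Ltbp1* at -2.34 ± 0.16, *Ltbp2* at -2.30 ± 0.24, *Tgfbi* at -2.24 ± 0.18 and *Tgfbr3* at -1.91 ± 0.11. *Tgfb1* (-1.69 ± 0.14) and *Tgfbr2* (-1.66 ± 0.09) were lower there as well, while *Tgfb2* (-0.32 ± 0.10) and *Tgfbr1* (0.60 ± 0.08) were not called. Glial-like cells had 4 lower members and no call for *Tgfbr3* (0.22 ± 0.12). Keratinocyte-like cells had 7 lower, and endothelial-like and macrophage-like cells had 6 lower each. The *Ltbp2* calls in keratinocyte-like, endothelial-like, macrophage-like and glial-like cells rest on 8, 15, 17 and 6 limb UMIs in that order. *Ltbp2* passed the filter in this fit through types with more counts, so its values in these cells are a description. Chondrocyte-like cells had lower *Tgfbr3* (-1.24 ± 0.10, adjusted p = 9.39e-09), as in penis. Mural-like cells had 0 called by edgeR or DESeq2, with 2 at an unadjusted p under 0.05. The background shares of all genes called were 38.1% in macrophage-like, 30.2% in muscle-like, 23.0% in endothelial-like, 18.6% in keratinocyte-like, 12.8% in glial-like, 11.3% in chondrocyte-like, 2.68% in tendon-like and 1.28% in mural-like cells. Those shares count both directions. Called lower alone were 21.6% in macrophage-like, 21.3% in muscle-like, 13.2% in endothelial-like, 10.4% in keratinocyte-like, 7.07% in glial-like and 7.02% in chondrocyte-like cells. With 2 libraries and a term for each, leaving out a limb library left no spread to test on. Calls lost under at least 1 alternative were those of *Tgfb2* in endothelial-like, *Ltbp2* and *Ltbp3* in glial-like, *Tgfb3* in muscle-like, *Tgfbi* in macrophage-like, and *Tgfb2*, *Tgfbr2*, *Ltbp2*, *Tgfbi* and *Ltbp3* in keratinocyte-like cells. Glial-like *Ltbp2* (-2.18 ± 0.57) lost its call by the adjusted p, at -2.59 with 1 marker fewer per gate and -2.70 with thinned cells. Keratinocyte-like *Ltbp2* (-1.94 ± 0.51) was -1.37 with 1 marker more and -2.81 with thinned cells. Keratinocyte-like *Tgfbr2* (-1.47 ± 0.13) fell to -0.71 with 1 marker fewer. Calls gained were those of *Tgfbr2* in endothelial-like, *Tgfbi* in glial-like, *Tgfbr1* in macrophage-like and *Tgfb1* and *Ltbp3* in tendon-like cells, at -1.20 (*Tgfbi*) to 1.11 (*Tgfbr1*).

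**Figure D3:**
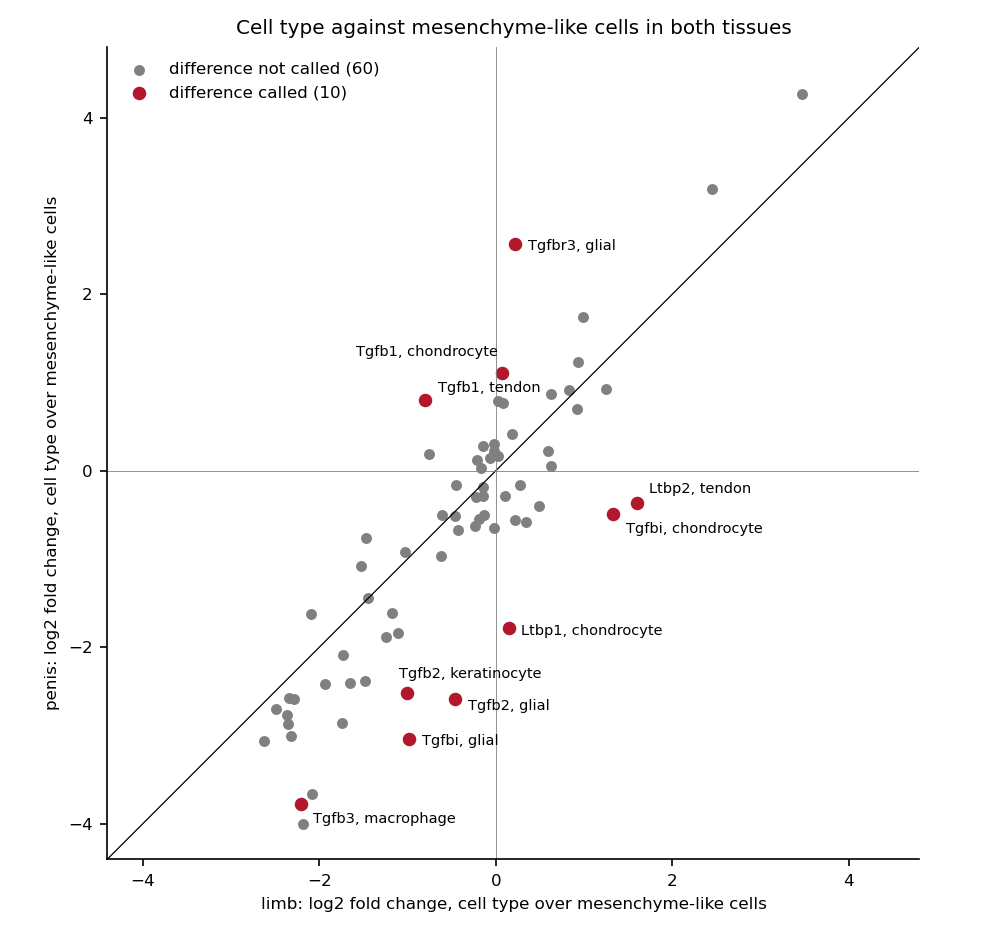
Log2 fold change of each cell type over mesenchyme-like cells in limb (horizontal axis) and penis (vertical axis), 1 point per member and type, for the 70 pairs of 10 members and 7 types present in both tissues. Points on the diagonal differed equally from mesenchyme-like cells in both tissues; the 10 named red points were called for the difference itself, and the other 60 are grey.

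Whether a cell type shared the penis and limb difference of mesenchyme-like cells was asked with an interaction term in one fit over all libraries, which gives the log2 fold change of penis over limb in a type minus that in mesenchyme-like cells. Of 70 pairs 10 were called, 3 higher and 7 lower. Glial-like cells had 3: *Tgfbr3* (2.32 ± 0.14, adjusted p = 1.51e-14), *Tgfb2* (-2.16 ± 0.20, adjusted p = 1.48e-10) and *Tgfbi* (-2.09 ± 0.41, adjusted p = 2.02e-04), where 9.76% of all genes were called. Chondrocyte-like cells had 3: *Ltbp1* (-1.95 ± 0.21, adjusted p = 1.13e-08), *Tgfbi* (-1.84 ± 0.20, adjusted p = 6.89e-09) and *Tgfb1* (1.02 ± 0.17, adjusted p = 2.64e-05), where 8.64% of all genes were called. Tendon-like cells had 2: *Ltbp2* (-2.03 ± 0.26, adjusted p = 1.21e-06), which was less raised in penis there than in mesenchyme-like cells, and *Tgfb1* (1.54 ± 0.24, adjusted p = 2.72e-05), with 4.01% of all genes. Keratinocyte-like cells had *Tgfb2* (-1.52 ± 0.19, adjusted p = 1.68e-07; 6.57% of all genes) and macrophage-like cells *Tgfb3* (-1.63 ± 0.40, adjusted p = 0.00240; 7.64% of all genes), which rests on 19 penis UMIs. That last pair had failed the filter on low counts between the tissues and entered this fit through types with more counts. Its value is a description. Endothelial-like (8.26% of all genes called) and mural-like cells (1.50%) had 0 members called by edgeR or DESeq2, with 6 and 4 at an unadjusted p under 0.05. With 1 marker more per gate, mural-like cells were called for *Ltbp1* (-1.24, against -0.29 ± 0.21), *Tgfbi* (-1.19, against -0.45 ± 0.23) and *Tgfb3* (-1.08, against -0.10 ± 0.18). Endothelial-like cells were called for *Tgfb1* with 1 marker fewer per gate (1.03, against 0.71 ± 0.14), for *Tgfbi* with cells of several gates kept (-1.07, against -0.93 ± 0.30) and for *Ltbp2* with no filter on low counts (-1.58, against -1.62 ± 0.73).

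Some of the 10 calls depended on the gates, the cells kept or the depth. *Tgfb2* in keratinocyte-like cells was -0.40 with 1 marker fewer per gate and -0.74 with cells thinned to 2000 UMIs. *Tgfb3* in macrophage-like cells lost its call under 4 alternatives, at -0.49 with no cell filter, -0.69 with 1 marker fewer per gate, -1.55 with 1 marker more and -2.26 with thinned cells. *Tgfb1* in tendon-like cells was 1.56 with thinned cells and not called (adjusted p = 0.0203 by edgeR). *Tgfbi* in glial-like cells was -1.43 with 1 marker fewer per gate and not called, and *Tgfb1* in chondrocyte-like cells was 0.96 with 1 marker fewer per gate and 0.99 with no filter on low counts. Single libraries decided 3 of the calls: *Tgfb1* in chondrocyte-like cells was 0.84 ± 0.20 without penis library 2 and 0.90 ± 0.20 without hindlimb, *Tgfbi* in glial-like cells was -1.78 ± 0.49 without hindlimb, and *Tgfb3* in macrophage-like cells was -1.16 ± 0.40 without penis library 1 and -1.39 ± 0.51 without forelimb. A further 4 pairs were called once a library was left out: *Ltbp3* in macrophage-like cells without penis library 2 (-1.20 ± 0.31), *Tgfbr1* in chondrocyte-like cells without penis library 3 (-1.01 ± 0.13), *Tgfbr2* in glial-like cells without forelimb (1.15 ± 0.19) and *Tgfbi* in endothelial-like cells without hindlimb (-1.23 ± 0.32). Other settings also brought calls for *Ltbp3* in macrophage-like (-1.30 with 1 marker more per gate), *Tgfbr1* in chondrocyte-like (-1.28 with thinned cells), *Tgfbr2* in glial-like (1.06 with 1 marker fewer), *Ltbp2* in chondrocyte-like (-1.45 with 1 marker fewer), *Tgfb1* in glial-like (1.04 with 1 marker more) and *Tgfb3* in keratinocyte-like cells (-1.44 with no cell filter). The mesenchyme markers moved between tissues in the same gates: they summed to 67.7% to 72.0% of the mesenchyme-like level in penis chondrocyte-like cells and to 41.4% to 45.2% in limb, and to 6.29% to 12.6% in penis glial-like cells and 25.1% to 30.6% in limb. In tendon-like cells the sums were 74.6% to 81.2% in penis and 60.6% to 65.4% in limb, in keratinocyte-like cells 15.9% to 17.9% and 22.3% to 25.3%, and in macrophage-like cells 6.28% to 15.9% and 14.3% to 16.2%. Their part in these differences was not tested.

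Around the members, 44 other genes of the pathway were followed in 4 groups, namely latency and activation (16 genes), co-receptors and related receptors (7), Smads and inhibitors (11) and textbook targets (10). In mesenchyme-like cells 7 of 44 were called higher in penis, led by *Ltbp4*, the fourth latent TGF-beta binding protein (2.48 ± 0.13), and *Ccn2*, a matricellular target (2.16 ± 0.10). A further 4 were called lower, led by *Itgb6*, the integrin chain that activates latent TGF-beta in epithelia (-2.79 ± 0.14), and the activator *Thbs1* (-2.20 ± 0.07). Of all tested genes, 12.4% were called higher and 12.9% lower in these cells. The median log2 fold change of the list was 0.00997 there, against 0.0060 for all genes. Mural-like cells had 7 higher and 3 lower of 43 tested, with *Tagln*, a smooth muscle target, at 2.18 ± 0.11 and *Ltbp4* at 2.05 ± 0.14, and *Itgb6* at -2.83 ± 0.20 and *Thbs1* at -1.72 ± 0.16. Their median was 0.21 against 0.026 for all genes, of which 9.32% were called higher and 7.03% lower there.

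Target genes called higher in penis numbered 7 of 10 in tendon-like, 5 of 10 in chondrocyte-like, 4 of 10 in mural-like, 4 of 8 in glial-like, 3 of 10 in mesenchyme-like, 1 of 9 in endothelial-like (*Tagln*), 1 of 7 in macrophage-like (*Fn1*) and 0 of 10 in keratinocyte-like cells. Those called lower were *Scx* in mesenchyme-like, *Fn1* in mural-like and glial-like and *Acta2* in keratinocyte-like cells. Of all tested genes, 5.74% (keratinocyte-like) to 12.4% (mesenchyme-like) were called higher in a type. Tendon-like cells had 11 higher and 2 lower of 40, with *Acta2* at 3.51 ± 0.24 and *Ccn2* at 3.03 ± 0.25 against *Itgb6* at -5.80 ± 0.63 and the Smad co-repressor *Tgif1* at -1.45 ± 0.28; *Scx*, one of the targets, is also a marker of the tendon gate and was not called. Chondrocyte-like cells had 9 higher and 5 lower of 42, among them the matrix gene *Postn* (2.29 ± 0.11) and the collagen gene *Col1a1* (2.11 ± 0.16), and with *Itgb6* at -2.18 ± 0.42 and *Thbs1* at -2.12 ± 0.23. The summed mesenchyme markers of these gates were also higher in penis, at 1439 to 1504 CPM against 1018 to 1111 in limb tendon-like cells and at 1303 to 1335 against 696 to 769 in chondrocyte-like cells. In mural-like cells they summed to 1446 to 1472 CPM in penis and 1210.2 to 1230.3 in limb. Their part in these calls was not tested. The list medians of the tendon-like and chondrocyte-like cells were 0.042 and 0.030, against -0.0019 and -0.0040 for all genes. Glial-like cells had 7 higher and 7 lower of 40, with *Ltbp4* at 3.41 ± 0.22 and the integrin chain *Itgb3* at 3.31 ± 0.26 against *Itgb6* at -3.92 ± 0.31 and fibronectin, *Fn1*, at -2.52 ± 0.21. Their median was 0.14 against 0.013. Endothelial-like cells had 4 higher and 4 lower of 42, with *Ltbp4* at 1.77 ± 0.14 and *Tagln* at 1.77 ± 0.21 against *Itgb6* at -3.54 ± 0.23 and *Thbs1* at -2.57 ± 0.22, and a median of 0.099 against 0.013. Keratinocyte-like cells had 2 higher (*Ltbp4* at 2.34 ± 0.17 and the protease *Mmp2* at 1.04 ± 0.18) and 1 lower (*Acta2* at -3.43 ± 0.30) of 41, with a median of -0.054 against 0.011. Macrophage-like cells had 3 higher, led by *Mmp2* (1.72 ± 0.23) and *Fn1* (1.64 ± 0.14), and 1 lower (*Itgb6* at -2.72 ± 0.47) of 37, with a median of 0.12 against 0.000034. Among Smads and inhibitors 0 of 11 were called higher in any of the 8 types. At most 3 were called lower, namely *Skil*, *Tgif1* and *Smad7* in chondrocyte-like cells. These calls were made by edgeR at the same limits. UMI counts are not given for the pathway genes, and a gene could pass the filter on low counts through the limb libraries alone. How many penis UMIs stand behind the *Itgb6* folds is not shown. Among all tested genes, 7.42% were called higher and 6.10% lower in tendon-like cells, and 9.85% and 7.80% in chondrocyte-like cells. The same shares were 9.01% and 7.09% in glial-like and 7.20% and 6.30% in endothelial-like cells. They were 5.74% and 5.27% in keratinocyte-like and 7.72% and 3.57% in macrophage-like cells.

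**Figure D4:**
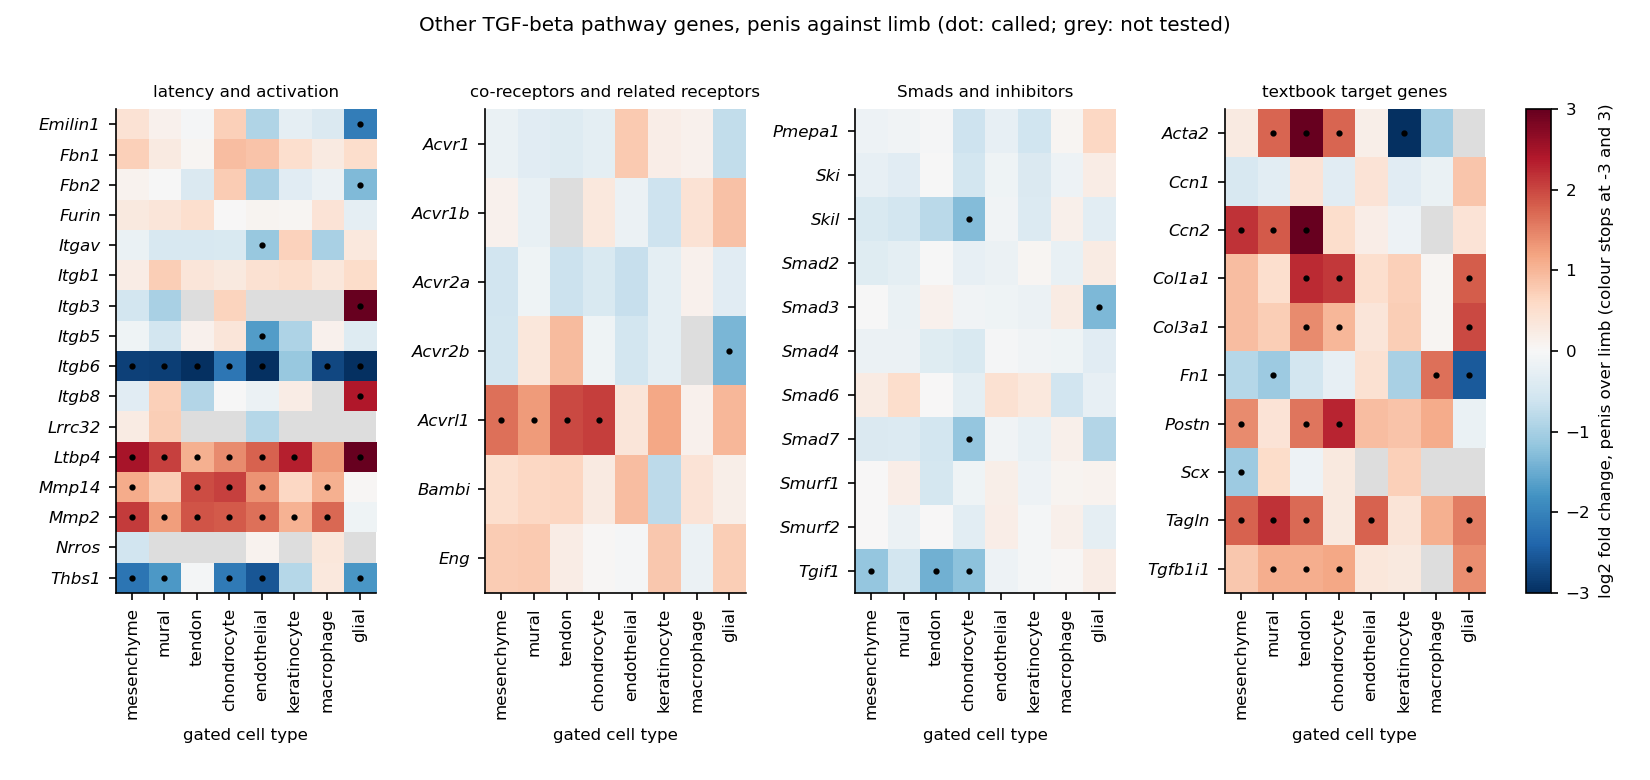
Log2 fold change of penis over limb for the 44 other pathway genes (rows, in 4 groups by role) in 8 gated types (columns), as color from -3 to 3; a dot marks a gene called by edgeR and grey one that was not tested. Tendon-like and chondrocyte-like cells had the most targets called higher (7 and 5 of 10), and *Itgb6* was called lower in 7 of 8 types. The UMI counts behind the *Itgb6* calls are not shown.

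The pattern of each member over the 45 sums of library and type was set beside that of 12432 genes with a mean of at least 5 CPM, as Pearson's r of log2(CPM + 1). The sums share libraries and differ in depth, so these values are descriptive. The genes most like *Tgfb1* were *Fxyd5* (0.92), *Tpst2* (0.91) and *Gnai2* (0.90). Those most like *Tgfb2* were *P4ha3* (0.92), *Gbf1* (0.89) and *Zfp423* (0.89), and most like *Tgfb3* were *Snhg18* (0.94), *Col6a2* (0.94) and *Mfap2* (0.93). The nearest genes to the latency proteins were *Wnt5a* for *Ltbp1* (0.91), *Eln*, elastin, for *Ltbp2* (0.94) and *Bgn*, biglycan, for *Ltbp3* (0.95). For the receptors they were *Cisd2* for *Tgfbr1* (0.75), *Dock4* for *Tgfbr2* (0.86) and *Lamb1* for *Tgfbr3* (0.90), and for *Tgfbi* it was *Gm26771* (0.86). Among the members, *Tgfb3* and *Ltbp3* (0.89) and *Ltbp2* and *Ltbp3* (0.89) were closest, and *Tgfb1* ran against *Tgfb2* (-0.43) and *Tgfb3* (-0.42).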

How the data were processed

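The authors dissociated the tissues, made 10X Genomics 3′ libraries and counted UMIs with Cell Ranger 7.0.0 on mm10. The deposited matrices hold those UMI counts with no later normalization, for 32285 genes in each library. Whether introns were counted is not given in the sources used here. Cells were kept by the limits of the study's methods, read as genes per cell (penis 500 to 6000, forelimb 100 to 9000 and hindlimb 100 to 9500), with at most 5% (penis) or 10% (limb) mitochondrial UMIs and at least 0.8 log10 genes per log10 UMI. Cells were gated by the number of markers detected: endothelial 4 of 7, mural 3 of 8, keratinocyte 3 of 6, macrophage 4 of 7, glial 3 of 6, muscle 3 of 7, chondrocyte 4 of 7, osteoblast 3 of 7, tendon 3 of 5, then mesenchyme 3 of 6. Red blood cells (4 of 5) and cells in several gates (88 to 491 per library) were left out, and no doublet caller was run. Counts were summed per library and type of at least 20 cells per library, and tested with edgeR 4.0.16 in R 4.3.3 (quasi-likelihood test, TMM scaling, filterByExpr, Benjamini-Hochberg over all genes). Comparisons were penis against limb within a type, each type against mesenchyme-like cells with library as a block in penis and in limb, and the difference of the penis and limb change between types. The standard error is the log2 fold change divided by the root of F. Intervals and detection floors cover counting error only. Alternatives were other gates, cells of several gates kept, DESeq2 1.42.0, no TMM, no filter on genes or on cells, cells thinned to 2000 UMIs, and each library left out. Under an alternative a type needed at least 5 cells per library. The scripts were tested on simulated data. Members, lists and markers were chosen with earlier results of these data known. The genes named for the pathway list were the 2 highest and the 2 lowest called by log2 fold change in each type. Targets called lower, and the Smads and inhibitors called lower in chondrocyte-like cells, are named as well. One gene of that list is not reported here.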

Additional observations from a re-analysis of the deposited data

Results flagged for a closer look

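In 10 cases the penis and limb difference of a member in one cell type differed from that in mesenchyme-like cells by a test of the difference itself, the edgeR interaction term (adjusted p under 0.01 and beyond 1 on the log2 scale, 3 penis and 2 limb libraries). In chondrocyte-like cells the difference was 1.0209 for *Tgfb1*, -1.8443 for *Tgfbi* and -1.9539 for *Ltbp1*. In glial-like cells it was 2.3222 for *Tgfbr3*, -2.1595 for *Tgfb2* and -2.0935 for *Tgfbi*. For keratinocyte-like cells *Tgfb2* differed by -1.5216 and for macrophage-like cells *Tgfb3* by -1.6317. The *Tgfb3* value rests on 19 penis UMIs in a pair that failed the filter on low counts between the tissues. In tendon-like cells the difference was 1.5394 for *Tgfb1* and -2.0261 for *Ltbp2*. The calls for *Tgfbi* and *Ltbp1* in chondrocyte-like cells, *Tgfbr3* and *Tgfb2* in glial-like cells and *Ltbp2* in tendon-like cells held under all 13 alternatives, and the other 5 did not.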

How the results depend on the processing

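Calls that held under every alternative fitted were 16 of 24 for penis against limb, 26 of 34 for types against mesenchyme-like cells in penis, 27 of 37 in limb and 5 of 10 for the differences between types. The numbers called ran from 18 (cells thinned to 2000 UMIs, with 66 pairs tested) to 27 for penis against limb, 26 (1 marker fewer per gate) to 43 (1 marker more) in penis, 34 to 39 in limb, and 9 to 14 for the differences. With one library left out they ran from 24 to 26, from 33 to 34 in penis and from 9 to 11 for the differences; the limb fit could not be made without a limb library. No called value turned its direction. Over all member fold changes and alternatives, 3301 stayed on their side of the limits, 71 lost the call and 70 gained it, and 155 uncalled values had the other sign. Of 540 mean levels, 177 moved by more than 1 SD between libraries. Without TMM scaling the median of all genes in the comparisons with mesenchyme-like cells was -0.38 in penis and -0.37 in limb macrophage-like, -0.45 in limb muscle-like and -0.22 and -0.21 in keratinocyte-like cells, against -0.15 to -0.019 with it, and changes there are relative to that shift. No paired analysis was possible because penis and limb libraries share only a number that names the library. Depth limited *Tgfb3* in macrophage-like cells (2 UMIs in penis library 1) and *Ltbp2* in limb endothelial-like, keratinocyte-like and glial-like cells (2 to 12 UMIs). Limb macrophage-like cells held 17 *Ltbp2* UMIs over both libraries. The causes of these changes were not tested.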

Other observations

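Forelimb and hindlimb, with 1 library each and no test, could be set side by side over all kept cells. Hindlimb held more *Tgfb2* (141 against 111 CPM, 1.27-fold) and *Tgfbi* (60.9 against 54.5, 1.12-fold), and less *Ltbp2* (8.54 against 12.6, 0.677-fold) and *Ltbp3* (46.5 against 52.7, 0.883-fold). The remaining members other than *Ltbp1* had ratios of 0.980 to 1.07.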
